A study of Mus musculus with 3 samples.

Results

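Cyclic AMP and cyclic GMP are small second messengers made from nucleotide triphosphates inside the cell, and the genes that make them, break them down and respond to them were examined here in cells of the mouse glomerulus, the filtering unit of the kidney. Members were chosen by gene symbol among protein-coding genes: adenylyl cyclases (Adcy), guanylyl cyclase subunits (Gucy1 and Gucy2), natriuretic peptide receptors (Npr), phosphodiesterases (Pde with a number and at most one letter from a to d), subunits of the cAMP-dependent kinase PKA (Prkac, Prkar), the cGMP-dependent kinases PKG (Prkg) and the A-kinase anchoring proteins (Akap). The symbols matched 68 of the 21303 protein-coding genes, and of the 39304 rows of the table. They comprised 19 genes of the cGMP arm, 40 of the cAMP arm, 7 phosphodiesterases that cleave both nucleotides, and 2 genes that match by name alone. The symbol Pde2a matched no row and that gene was not analysed here. The pseudogene Prkaca-ps1 was left out because it is not protein-coding.

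All values came from 1 wild-type male C57BL/6 mouse aged 8 weeks. Glomerular cells were separated in a Fluidigm C1 microfluidic system, typed by qPCR of marker genes, and the cDNA of 15 mesangial and 15 endothelial cells was pooled and split into 3 aliquots for sequencing. Mesangial cells are the contractile cells that hold the capillary loops together, and endothelial cells line those loops. The 3 libraries are therefore 1 group with no treatment and no control, their spread is that of library preparation and sequencing, and no test of 1 arm against the other is possible; 3 paired values could not reach a p under 0.05 in an exact permutation test. Because the cells were mixed, the cell type behind a transcript cannot be told apart. The number of cells of each type rests on the qPCR typing, and the RNA that each type gave cannot be told from these values.

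The signals run in parallel. In the nitric oxide arm, nitric oxide made by endothelial cells enters contractile neighbours and activates soluble guanylyl cyclase, a dimer of an alpha and a beta subunit, and the cGMP it makes activates PKG, which relaxes the cell. Natriuretic peptides raise cGMP through receptors with their own cyclase domain. In the cAMP arm, receptors coupled to the G protein Gs activate membrane adenylyl cyclases, and cAMP frees the catalytic subunits of PKA from regulatory subunits that anchoring proteins hold in place. Phosphodiesterases end both signals.

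Library totals inferred from the FPKM values were 9141422, 10427635 and 10976563 reads in aliquots 1, 2 and 3. They are the totals that the FPKM were scaled by and may not be all reads sequenced. Levels are in the authors' deposited FPKM, that is, reads per kilobase of gene and per 1000000 reads, and a gene was called detected at 1 FPKM or more in every aliquot. All 10 mesangial and all 10 endothelial markers examined were detected, with summed levels of 8820 to 9266 and 2833 to 2896 FPKM over the aliquots. Of other cell types, 7 of 10 podocyte markers (sum 289.9 to 308 FPKM) and 7 of 8 smooth muscle and renin cell markers (sum 1599 to 1698 FPKM, of which Myl9 alone gave 1420.3 to 1504 FPKM, with Cnn1 at 0) were detected, and their part in the levels below was not tested. None of 8 tubule and none of 6 macrophage markers was detected, with 7 and 6 of them listed at 0. A value of 0 is given only as listed, because some genes of families that most cells use also had it in each aliquot. These were 4 of 77 mitochondrial ribosomal protein genes, 3 of 76 cytosolic ones and 3 of 40 proteasome subunit genes. Whether these are forms limited to few tissues was not tested.

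Of the 68 members, 37 were detected, 5 lay between 0 and 1 FPKM and 26 were listed at 0 in each aliquot. Among all protein-coding genes 36.4% were detected by the same rule, against 54.4% of the members. The arms were alike in this count, with 10 of 19 cGMP genes and 23 of 40 cAMP genes detected. The median member stood at 3.41 FPKM, while the median protein-coding gene was listed at 0 and the median detected one stood at 20.96 FPKM. The plot of levels by role shows 1 member well above the others among soluble guanylyl cyclases, cAMP-specific phosphodiesterases, PKA regulatory subunits and anchoring proteins, and closer levels among the natriuretic receptors and PKG genes.

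**Figure D1:**
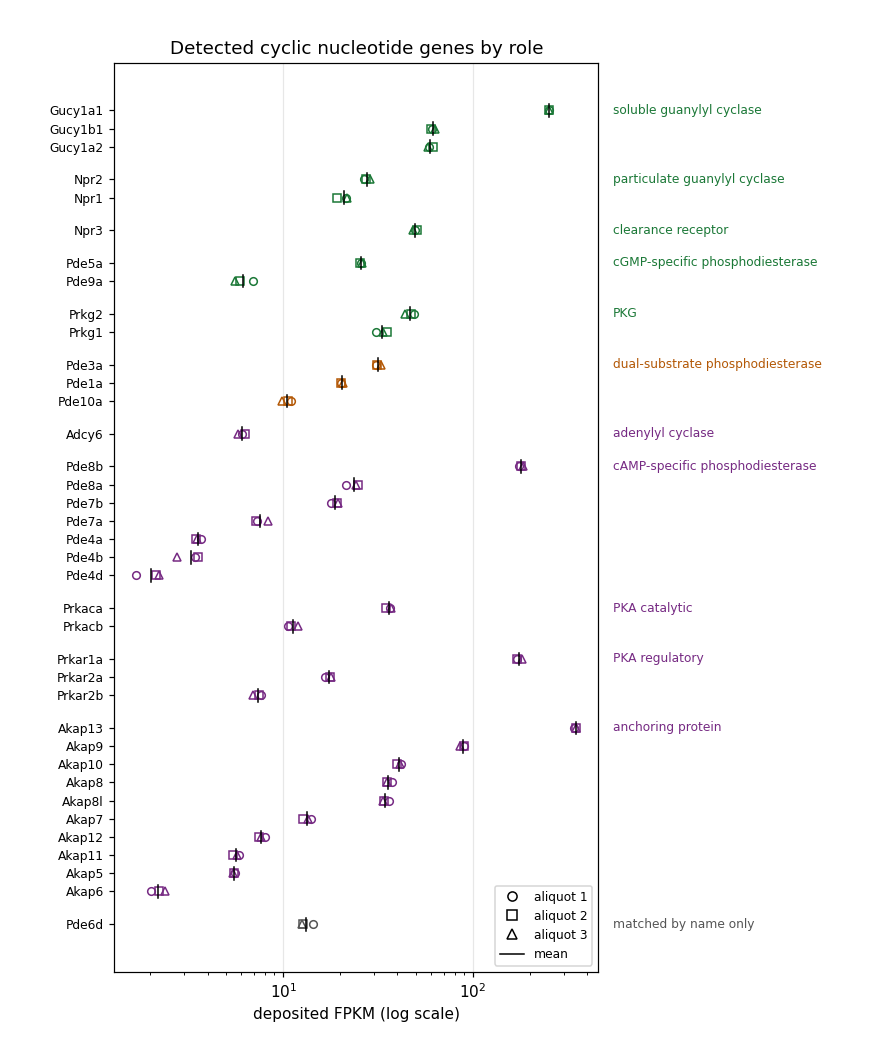
Deposited FPKM (horizontal, log scale) of the 37 detected genes, grouped by role, with 1 open symbol per aliquot and a vertical tick at the mean of the 3. Gucy1a1, Pde8b, Prkar1a and Akap13 stand above 150 FPKM in every aliquot, and genes below 1 FPKM in any aliquot are not drawn.

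Soluble guanylyl cyclase, the receptor of nitric oxide, held the enzyme subunit with the highest level of either arm. Gucy1a1 (ENSMUSG00000033910, chromosome 3, 82092427 to 82145789, minus strand, GRCm38), which encodes the alpha-1 subunit, had 251.8, 250.7 and 251.9 FPKM in aliquots 1, 2 and 3. This placed it at rank 385 of the 7761 detected protein-coding genes, and its coefficient of variation of 0.267% was the lowest of the detected members. Gucy1b1 (ENSMUSG00000028005, chromosome 3, 82032006 to 82074689, minus strand), which encodes the beta-1 subunit that carries the heme, lies next to it on the same strand and had 60.9, 59.9 and 62.9 FPKM. Gucy1a2 (ENSMUSG00000041624, chromosome 9, 3532778 to 3894736, plus strand), the alternative alpha-2 subunit, had 58.5, 61.3 and 57.8 FPKM. The aliquot ranges of Gucy1b1 and Gucy1a2 overlapped, and both lay far below Gucy1a1 in every aliquot.

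Alpha subunit transcripts outnumbered those of the beta subunit they pair with. The log2 ratio of Gucy1a1 to Gucy1b1 was 2.04 ± 0.032 (SD over the 3 aliquots), a 4.11-fold difference, and that of both alpha subunits to Gucy1b1 was 2.34 ± 0.040. Taking each gene's longest annotated transcript as its length left the first ratio at 2.01. It raised Gucy1a2 to a mean of 96.6 FPKM, above the 61.7 FPKM of Gucy1b1, because the deposited values imply 5273 bases for Gucy1a2 and its longest transcript has 3233. The fourth subunit gene, Gucy1b2, was listed at 0. Reads behind these levels numbered 35738 for Gucy1a1, 6083 for Gucy1b1 and 9539 for Gucy1a2 over the 3 libraries, so counting error was small.

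Both promoters of the dimer's main subunits are shown because the genes are neighbours with unequal levels. The stretches come from RefSeq promoter windows on GRCm38.p6 (250 bases before a start and 50 after it), run 5′ to 3′ on the minus strand, and hold no base of an annotated exon of their gene. Capitals mark a GC box (GGGCGG or CCGCCC) or a half-site of the cAMP response element (TGACG or CGTCA), both searched on both strands. The Gucy1a1 stretch covers chr3:82145790-82145900 and the Gucy1b1 stretch chr3:82074712-82074961. For Gucy1a1 the 250 bases run from 82145651 to 82145900 and were cut where an annotated exon begins. The stretches therefore do not lie at like distances from their starts. The bases just after the Gucy1b1 start were not found in an annotated transcript of that gene.
Gucy1a1: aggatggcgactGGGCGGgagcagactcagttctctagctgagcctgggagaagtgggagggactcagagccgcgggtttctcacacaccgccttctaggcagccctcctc
Gucy1b1: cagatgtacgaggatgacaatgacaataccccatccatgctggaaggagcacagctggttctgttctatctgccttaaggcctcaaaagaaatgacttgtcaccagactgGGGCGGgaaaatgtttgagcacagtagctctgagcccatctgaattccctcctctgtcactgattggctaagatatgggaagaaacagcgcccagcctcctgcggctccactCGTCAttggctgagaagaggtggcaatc
Both stretches hold 1 GC box, and the Gucy1b1 stretch also holds 1 half-site. Gucy1a1 has another annotated start, and the 250 bases before it (not shown) hold 0 of either motif. The first is 63.1% and the second 51.2% G and C. Of all 32851 RefSeq windows of 300 bases, which are longer than the stretches shown, 35.7% held a GC box and 20.8% a half-site.

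The natriuretic peptide receptors were present at moderate levels. Npr1, the receptor of atrial natriuretic peptide, had 21.5, 19.1 and 21.7 FPKM, and Npr2, the receptor of C-type natriuretic peptide, had 26.6, 27.5 and 28.5 FPKM. Npr2 was the higher in each aliquot, by a log2 ratio of 0.41 ± 0.108. Npr3, which binds the peptides without a cyclase domain and clears them, had 49.3, 50.9 and 48.6 FPKM. Npr3 about matched Npr1 and Npr2 together in deposited FPKM, with log2 ratios of 0.032, 0.13 and -0.048 in the 3 aliquots. With the longest transcripts as lengths the ratio rose to 1.38, since Npr3 values already imply nearly the longest length and those of Npr1 and Npr2 imply 1443 and 1560 bases. The 5 other membrane cyclases, Gucy2c of the intestine, the sensory forms Gucy2d, Gucy2e and Gucy2f, and Gucy2g, were listed at 0.

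Adenylyl cyclases were far lower. Adcy6 (chromosome 15, 98589973 to 98610076, minus strand), a calcium-inhibited form, was the single detected member of 10, with 6.04, 6.26 and 5.81 FPKM and rank 6047 of 7761 among detected protein-coding genes. Adcy4 had 0.762, 0.835 and 0.714 FPKM from 27 reads in all (exact Poisson 95% interval 17.8 to 39.3 reads, counting error only). That count holds at a length of 1149 bases, and a whole multiple of both is possible, so it may be too low. Adcy1 had 1 read in aliquot 2. The other 7, Adcy2, Adcy3, Adcy5, Adcy7, Adcy8, Adcy9 and the soluble Adcy10, were listed at 0 in each aliquot. Adcy3 shares 22.1% of its exon bases with a gene on the other strand and Adcy2 4.49%, and the other 5 share none; whether the counting used strand is not given in the sources used here.

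Summed over members, guanylyl cyclases had 419, 418.6 and 423 FPKM and adenylyl cyclases 6.80, 7.11 and 6.53 FPKM. The sums did not overlap, and the log2 ratio of cAMP to cGMP cyclases was -5.95 ± 0.069, a 61.7-fold difference. It was -6.10 with longest transcripts and -5.70 with mean transcript lengths. Without Gucy1a1 and Adcy6, the highest gene of each sum, it was -7.77. That value rests on Adcy4 and Adcy1, both below 1 FPKM in every aliquot, so it gives no check of the direction. Subunits of 1 dimer are counted separately in the cGMP sum, and Gucy1b1, the 1 detected beta subunit, was also compared alone. Gucy1b1 was 10.1-fold above Adcy6 (log2 ratio 3.34 ± 0.089), and 10.3-fold with longest transcripts. The sums rest on listed values, and the 7 adenylyl cyclases at 0 count as 0 in them.

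**Figure D2:**
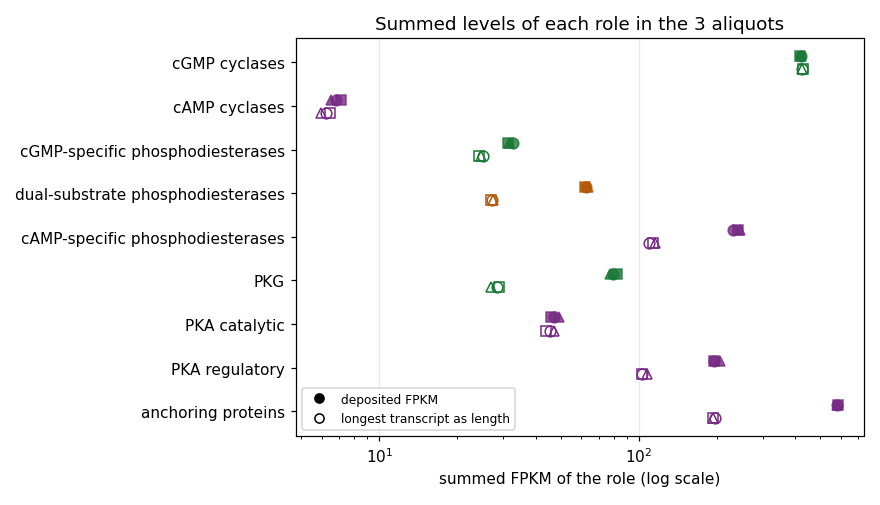
Summed FPKM of each role (horizontal, log scale), 1 symbol shape per aliquot (circle, square and triangle for 1, 2 and 3), filled for the deposited values and open with each gene's longest transcript as its length; green marks cGMP, purple cAMP and orange both substrates. Guanylyl cyclases (419 to 423 FPKM) lie far right of adenylyl cyclases (6.53 to 7.11 FPKM), while PKG and PKA catalytic subunits change places between filled and open symbols.

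Among the enzymes of breakdown the order of the summed levels was the opposite, with most of the cAMP-specific sum from 1 gene. Pde8b (chromosome 13, 95024454 to 95250336, minus strand), a cAMP-specific enzyme with high affinity that the general inhibitor IBMX does not block, had 175.4, 179.8 and 184.5 FPKM, at rank 604 of the detected protein-coding genes. Its paralog Pde8a had 21.5, 24.9 and 24.3 FPKM, 7.65-fold less. Pde7b, also cAMP-specific, had 17.8, 19.2 and 19.4 FPKM and Pde7a 7.28, 7.15 and 8.31 FPKM. Pde8b therefore made up 75.4% of the cAMP-specific sum, and its lowest aliquot was far above the highest of any other phosphodiesterase.

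The Pde4 genes, which encode the rolipram-sensitive cAMP enzymes that dominate in many cells, were low. Pde4a had 3.69, 3.47 and 3.53 FPKM, Pde4b 3.42, 3.58 and 2.76 FPKM and Pde4d 1.69, 2.14 and 2.23 FPKM, while Pde4c was listed at 0. The ranges of Pde4a and Pde4b overlapped. Pde4d, with 117 reads, had the largest coefficient of variation of the detected members, 14.4%.

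The cGMP-specific phosphodiesterases were led by Pde5a (chromosome 3, 122728947 to 122859374, plus strand), the target of sildenafil, with 25.9, 25.3 and 25.9 FPKM from 5277 reads. Pde9a, of high affinity for cGMP, had 6.90, 5.90 and 5.61 FPKM. Its values step as 41, 40 and 40 reads at a length of 650 bases, or a whole multiple of both. The photoreceptor enzymes Pde6a, Pde6b and Pde6c were listed at 0. Of the enzymes that cleave both nucleotides, the cGMP-inhibited Pde3a had 30.8, 31.1 and 32.6 FPKM, the calmodulin-activated Pde1a 20.2, 20.2 and 20.6 FPKM and Pde10a 10.98, 10.6 and 9.84 FPKM. Pde11a had 0.582, 0.328 and 0.485 FPKM, and Pde1b, Pde1c and Pde3b were listed at 0. Pde3a was 1.23-fold above Pde5a in deposited FPKM and 2.11-fold below it with longest transcripts, so their order depends on gene length.

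The cAMP-specific sum was 230.9, 240.2 and 245 FPKM and the cGMP-specific sum 32.8, 31.2 and 31.5 FPKM. Their log2 ratio was 2.91 ± 0.078, a 7.502-fold difference, and fell to 2.19 with longest transcripts, a 4.57-fold difference. Without the leading enzyme of each sum, Pde8b and Pde5a, it was 3.26, with Pde9a then the only cGMP-specific gene above 0. Leaving out Pde8b alone was not tried. With longest transcripts Pde8b held 87.6 of the 112.7 FPKM of the cAMP-specific sum, against 24.6 FPKM for the cGMP-specific sum. The plot of ratios by gene length shows the cyclases and phosphodiesterases on opposite sides of 0 under every length tried.

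**Figure D3:**
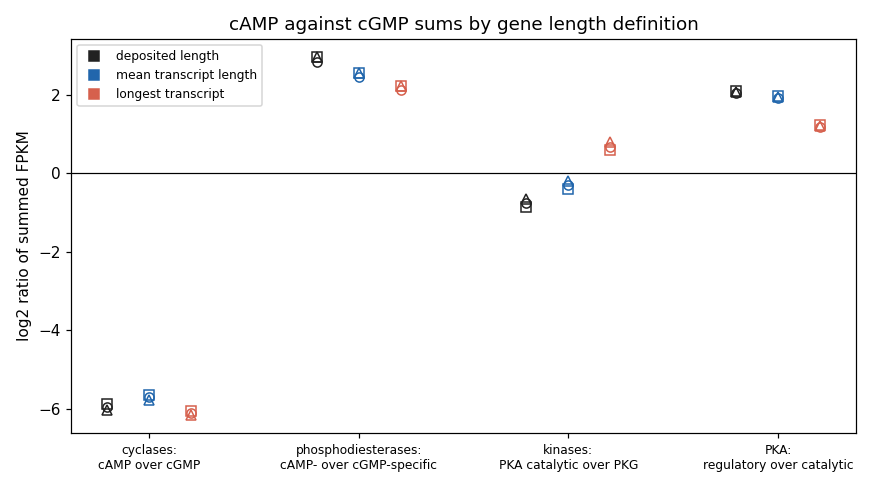
The log2 ratio of summed FPKM (vertical) for 4 comparisons, with 1 symbol per aliquot (circle, square and triangle for 1, 2 and 3) and 1 colour per gene length definition. The cyclase ratio stays between -6.15 and -5.64 and the phosphodiesterase ratio between 2.12 and 2.96, while the kinase ratio crosses 0 with the longest transcripts.

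The kinases of the arms were closer to each other. Prkg1, the PKG of smooth muscle and mesangial cells, had 30.7, 35.3 and 33.7 FPKM, and Prkg2, the membrane-bound PKG known from intestine, bone and kidney, had 48.7, 47.4 and 43.8 FPKM. Prkg2 was the higher in each aliquot, by a log2 ratio of 0.49 ± 0.154 that rose to 1.32 with longest transcripts. Of the PKA catalytic subunits, Prkaca had 36.6, 34.8 and 37.1 FPKM and Prkacb 10.6, 11.02 and 12.02 FPKM, a 3.23-fold difference. The PKA catalytic sum (47.2, 45.8 and 49.1 FPKM) was below the PKG sum (79.5, 82.6 and 77.6 FPKM), with a log2 ratio of -0.75 ± 0.097, or -1.57 without Prkaca and Prkg2. With longest transcripts the sign turned (0.69), so which kinase is the more abundant was not settled by these values.

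Among PKA regulatory subunits, which hold the catalytic subunits inactive until cAMP binds, the type I gene Prkar1a (chromosome 11, 109649405 to 109669656, plus strand) was by far the highest. It had 171, 169.8 and 180.9 FPKM, at rank 632 of the detected protein-coding genes. The type II genes were lower, with 16.6, 17.7 and 17.8 FPKM for Prkar2a and 7.63, 7.47 and 6.96 FPKM for Prkar2b, and Prkar1b was listed at 0. Prkar1a was 10.01-fold above Prkar2a, or 5.96-fold with longest transcripts. Regulatory transcripts outnumbered catalytic ones by a log2 ratio of 2.07 ± 0.021, a 4.19-fold difference that fell to 2.30-fold with longest transcripts. Without Prkar1a and Prkaca, the highest gene of each sum, the log2 ratio was 1.14. The excess over the full catalytic sum rests on Prkar1a. Prkar2a and Prkar2b averaged 17.4 and 7.35 FPKM, against 47.4 FPKM for the catalytic sum.

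Prkar1a was also the 1 detected member with a complete cAMP response element (TGACGTCA, its own reverse complement) in a RefSeq promoter window. The element is shown because it is the site that the arm's transcription factor CREB is known to bind. It begins 49 bases before 1 of the 6 annotated starts, in the stretch chr11:109650889-109650918 of GRCm38.p6 on the plus strand, with the element in capitals.
Prkar1a: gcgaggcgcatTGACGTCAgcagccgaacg
The complete element occurred in 2 of 97 member windows (2.06%), both of Prkar1a, and in 1.79% of all windows. By gene, it was in 1 of 56 members with an entry and in 549 of all 27025 genes. The half-site occurred in a window of 10 of 20 detected cAMP genes and 3 of 8 detected cGMP genes with an entry, against 6228 of all 27025 genes in the promoter table, and genes differ in how many starts are listed. Over windows, 16 of 57 from detected members (28.1%) and 4 of 33 from members listed at 0 (12.1%) held it, against 20.8% of all windows. The sequence TATAAA on the gene's strand was in none of the 57 windows of detected members and in 8.32% of all windows, and no member window held a CArG box, the serum response element core known from smooth muscle genes, found in 1.63% of all windows. Entries existed for 56 of the 68 members. These are matches of letters and were not tested.

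Anchoring proteins, a family named for tethering PKA near its targets, had 10 of 16 members detected. They were taken by symbol, and whether each product binds PKA was not tested. Akap13 (chromosome 7, 75455534 to 75754609, plus strand), which also activates the GTPase RhoA, had 339.7, 351 and 351 FPKM, the highest level of any member and rank 250 of the detected protein-coding genes. Akap9, a scaffold of the Golgi and centrosome, followed with 90.1, 89.3 and 85.2 FPKM in the deposited values. Akap10, a mitochondrial anchor, had 41.7, 39.6 and 41.2 FPKM, and the nuclear proteins Akap8 and its neighbour Akap8l had 37.2, 35.1 and 35.1 FPKM and 36.1, 34.2 and 33.5 FPKM, with overlapping ranges. Lower levels were found for Akap7 (12.7 to 14.1 FPKM), Akap12, also called gravin (7.42 to 8.02 FPKM), Akap11 (5.45 to 5.85 FPKM), Akap5 (5.44 to 5.55 FPKM) and the muscle and brain anchor Akap6 (2.01 to 2.38 FPKM).

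The rank of Akap13 rests on gene length. Its values imply 3009 bases, while its longest transcript has 12597, and with that length it would have 82.9 FPKM against 248.4 FPKM for Gucy1a1. The place of Akap9 rests on it too: with longest transcripts it had 14.5 FPKM on average, below Akap8 (28.96 FPKM), Akap10 (24.4 FPKM) and Akap8l (16.4 FPKM), and the aliquot ranges of these 4 genes did not overlap. Akap17b had 0.676 to 0.692 FPKM and Akap1 had 2 reads in all. Akap2, Akap14, and Akap3 and Akap4, both known from sperm, were listed at 0. Akap2 shares 84.4% of its exon bases with Pakap on the same strand, which was listed at 0 too, so reads from these could not be told apart.

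Of the genes matched by name alone, Pde6d, a chaperone of prenylated proteins, had 14.3, 12.7 and 12.6 FPKM, and Pde12, a mitochondrial nuclease, was listed at 0.

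Over all members, the arm medians of log2(FPKM + 1) were 2.19, 2.18 and 2.04 for cAMP genes and 2.98, 2.79 and 2.72 for cGMP genes in aliquots 1, 2 and 3. The difference, cAMP minus cGMP, was -0.69 ± 0.094 and shrank to -0.064 with longest transcripts. It was -1.73 for members with a mean of at least 0.1 FPKM and -1.001 without anchoring proteins. The difference of medians thus depended on gene length and on which genes were counted, whereas the directions of the cyclase and phosphodiesterase ratios held under the 3 length definitions.

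No member differed between aliquots beyond counting error by the test used. Whole reads could be recovered from the steps of the FPKM values, and a chi-square test of reads against library totals, with Benjamini-Hochberg adjustment over 9120 genes of at least 30 reads, called 0 of the 39 members tested, against 1.09% of all genes. At an unadjusted p under 0.05 it had 4 members (10.3%, against 11.4% of all genes). The smallest adjusted chi-square p of a member was 0.32, for Prkar1a, which was highest in aliquot 3. Among the 37 detected members the coefficient of variation had a median of 3.72%, and it was under 10% for 34 of them, the others being Pde4b, Pde4d and Pde9a with 117 to 196 reads.

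**Figure D4:**
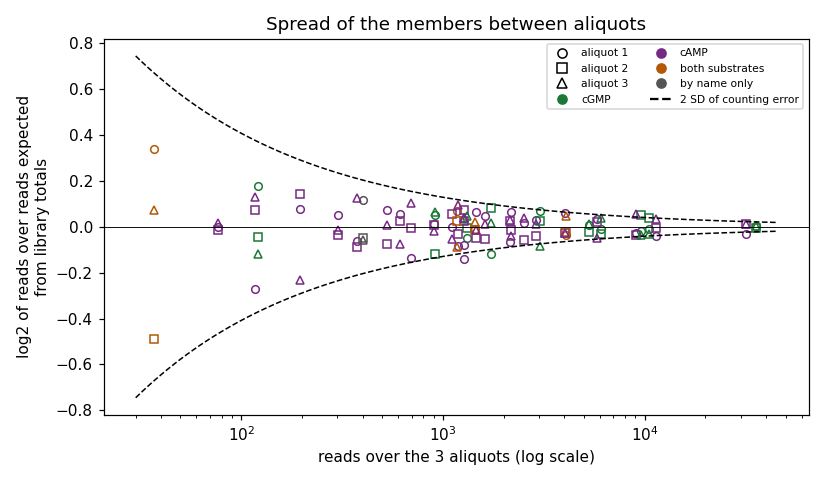
Reads of each tested member over the 3 aliquots (horizontal, log scale) against the log2 of its reads in 1 aliquot over those expected from the library totals (vertical), with 1 symbol shape per aliquot and 1 colour per arm. Dashed lines mark 2 SD of counting error for libraries of equal size, and the points narrow toward 0 as reads rise from 37 for Pde11a to 35738 for Gucy1a1.

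The partners of each arm were then examined in 10 lists of 90 genes, of which 89 were matched and 43 detected. For nitric oxide supply 6 of 11 genes were detected. Nostrin, which traffics the endothelial synthase, had 499 ± 8.15 FPKM and caveolin Cav1, which binds that synthase, 204 ± 5.71 FPKM (SD, n = 3, as for all partner genes). Ddah1, which degrades an inhibitor of the synthases, had 122 ± 1.11 FPKM and the arginase Arg1 78.9 ± 3.28 FPKM. Partner levels are deposited FPKM and depend on gene length too. With longest transcripts Arg1 (78.8 FPKM) stood above Ddah1 (72.0 FPKM) and Cav1 (68.8 FPKM). The synthases themselves were at or near 0, with Nos1 and Nos2 listed at 0 in each aliquot and 1 read of Nos3 in aliquot 1. Of 7 genes for natriuretic peptides and their processing, the protease Furin was detected with 14.3 ± 0.578 FPKM, and the peptides Nppa, Nppb and Nppc were listed at 0.

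Targets of PKG and other cGMP effectors were detected for 6 of 14 genes, led by Rgs2, which shuts off Gq signals and is activated by PKG, with 651 ± 7.76 FPKM. The PKG substrate Mrvi1 had 54.2 ± 0.978 FPKM and Itpr1, the calcium channel it regulates, 31.1 ± 0.602 FPKM. Ppp1r12a, the targeting subunit of myosin phosphatase, had 33.6 ± 0.841 FPKM. With longest transcripts Rgs2 had 271 FPKM, and Itpr1 (31.0 FPKM) stood above Mrvi1 (24.8 FPKM) and Ppp1r12a (22.5 FPKM). The potassium channel Kcnma1, the small heat shock protein Hspb6 and the photoreceptor channel Cnga1 were listed at 0.

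Upstream of the adenylyl cyclases, 6 of 19 genes for Gs-coupled receptors and their partners were detected. Calcrl, the receptor of adrenomedullin, had 589 ± 28.8 FPKM and its partner Ramp2 197 ± 10.4 FPKM. The parathyroid hormone receptor Pth1r had 19.4 ± 2.26 FPKM and the prostaglandin receptor Ptger4 15.9 ± 0.504 FPKM. Of 7 G protein alpha subunits 6 were detected. The inhibitory Gnai3, Gnai2 and Gnai1 had 63.1 ± 0.821, 56.7 ± 0.623 and 10.9 ± 0.485 FPKM. The stimulatory Gnal had 10.6 ± 0.65 FPKM and Gnas 2.25, 2.98 and 2.59 FPKM, while Gnao1 had 0.0873, 0.383 and 0.218 FPKM. Gnas shares 22.0% of its exon bases with genes on the other strand, whose part in its low level was not tested.

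Downstream, all 3 inhibitors of PKA were detected, with Pkig at 85.3 ± 2.13, Pkia at 16.7 ± 1.42 and Pkib at 3.63 ± 0.461 FPKM. The cAMP-activated exchange factors Rapgef4 and Rapgef3 had 50.7 ± 1.003 and 40.4 ± 1.49 FPKM, and the 7 other cAMP effectors, among them Bves, Popdc2 and Popdc3, were listed at 0. Of 8 genes for CREB and its coactivators 7 were detected. Atf1, a close relative of CREB, had 104 ± 3.95 FPKM, and the coactivators Crtc3, Crebbp and Ep300 had 27.1 ± 0.554, 17.6 ± 0.304 and 15.9 ± 0.246 FPKM. With longest transcripts the order of these coactivators turned around, at 10.5, 12.2 and 14.5 FPKM. Creb1 itself had 2.78, 2.43 and 2.43 FPKM and Crtc1 1.26, 0.94 and 0.74 FPKM. The exporters of cyclic nucleotides Abcc5 and Abcc4 had 29.01 ± 0.148 and 8.97 ± 0.744 FPKM, and the symbol Abcc11 was not matched. Of 9 early targets of CREB 4 were detected, with Dusp1 at 148 ± 5.04, Nr4a2 at 6.001 ± 1.304, Per1 at 3.99 ± 0.589 and Nr4a1 at 1.48 ± 0.235 FPKM, and Fos, Junb and Nr4a3 were listed at 0.

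**Figure D5:**
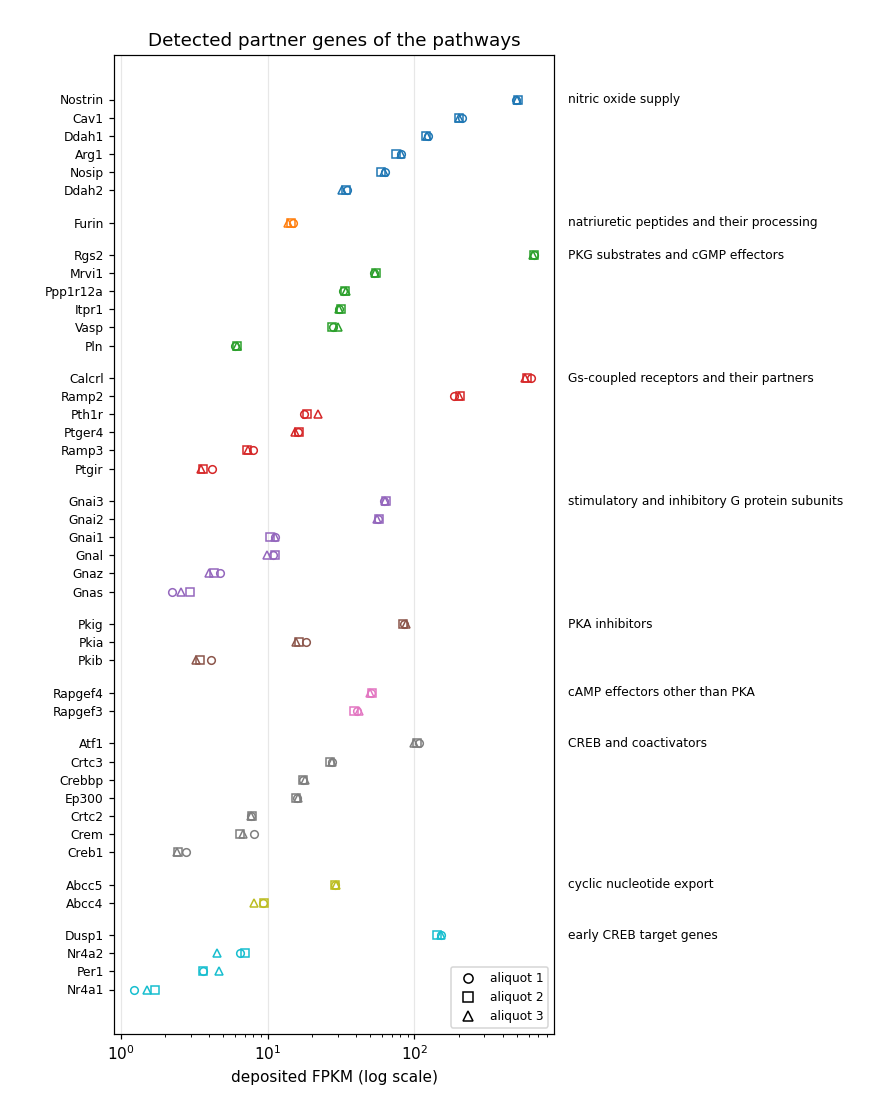
Deposited FPKM (horizontal, log scale) of the 43 detected partner genes, grouped by list, with 1 open symbol per aliquot. Rgs2, Calcrl and Nostrin are the highest, at 498.6 to 651 FPKM on average, and Nr4a1 and Gnas are among the lowest. With longest transcripts (not drawn) Rgs2 had 271 FPKM, below Calcrl (376 FPKM) and Nostrin (333 FPKM).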

How the data were processed

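RNA sequencing values of 3 aliquots of 1 cDNA pool were analysed. The authors deposited 1 FPKM value per gene and aliquot. Per the submitters' processing notes, TopHat2 2.0.12, HTSeq 0.6.1 and GRCm38 were used; which annotation, strand setting and gene length were used was not stated there. Gene symbols were taken from a name table (37607 of 39304 rows) and gene types, coordinates and lengths from GENCODE M21 on GRCm38.

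Library totals were taken as the most frequent value of 1 read among single-transcript genes under 0.5 FPKM. Each gene's length is the smallest whole number that made its reads whole within 0.0001, or a multiple within 1 base of the mean transcript length (374 genes), and 11142 of 11142 genes above 0 had a solution. Reads can be too low by a common factor. Implied lengths of 17 of 42 members equalled the mean over annotated transcripts to within 1 base, and a shorter length gives a higher FPKM. A count of 3 reads equals 0.0982 reads per 1000000 over the libraries. Reads of amplified cDNA are not independent molecules, so intervals cover counting error only.

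Sums and ratios were computed per aliquot. Every member is accounted for; of each partner list the 4 highest detected and up to 3 undetected genes are named, except that the undetected receptors are not reported here by name, and Gnas and Creb1 were picked after their values were seen. Members and lists were chosen with earlier results of these data known. The chi-square test (scipy 1.17.1) was tested on simulated data, with an outcome that is not reported here. Alternatives were other detection limits, read minimums, gene lengths, pseudocounts and filters, leading members left out, anchoring proteins left out, and each aliquot left out.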

Additional observations from a re-analysis of the deposited data

How the results depend on the processing

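Values are log2 ratios of summed FPKM or differences of log2 medians unless stated. With the longest transcript as gene length, the kinase ratio of PKA catalytic subunits over PKG reversed from -0.75 to 0.69, the cyclase ratio (cAMP over cGMP) was -6.10, the phosphodiesterase ratio 2.19, the ratio of PKA regulatory to catalytic subunits 1.20 and the difference of arm medians -0.064. With the mean transcript length the 4 ratios were -0.30, -5.70, 2.51 and 1.94 in the same order. Without the highest gene of each sum they were -1.57, -7.77, 3.26 and 1.14. The cyclase value then holds no detected adenylyl cyclase, and the phosphodiesterase value holds Pde9a alone for cGMP. The difference of arm medians was -0.83 with a pseudocount of 0.1 FPKM, -1.73 for members with a mean of at least 0.1 FPKM and -1.001 without anchoring proteins. Why each value moved was not tested. Leaving out 1 aliquot gave -0.80 to -0.71 for kinases, -5.98 to -5.91 for cyclases, 2.88 to 2.95 for phosphodiesterases, 2.06 to 2.08 for PKA subunits and -0.74 to -0.64 for the medians. The count of detected members was 39 at 0.5 FPKM, 33 at 5 FPKM, and 37 with a mean of 1 FPKM or without any 1 aliquot. The count of members beyond sampling noise was 0 with 10 or 100 reads as the minimum and without any 1 aliquot. Neighbouring members of a role with overlapping ranges numbered 4 of 25, and 3 of 25 with longest transcripts, a setting chosen after seeing the data. No paired analysis was possible because the aliquots form 1 group. Depth limits the members with fewest reads, Adcy4, Adcy1, Akap1 and Pde11a, at 27, 1, 2 and 37 recovered reads. The 27 of Adcy4 may be too low by a common factor.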
